A study of Mus musculus with 8 samples.

Results

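The genes described here encode the respiratory chain and the ATP synthase, the enzymes of the mitochondrial inner membrane that turn the oxidation of fuels into ATP. They were taken by symbol from RNA-seq tables of mouse neural stem/precursor cells (NS/PCs), which divide in the embryonic brain and produce its neurons and glia. Of 23997 symbols, 92 began with Ndufa, Ndufb, Ndufc, Ndufs, Ndufv, Uqcr, Cox4 to Cox8 or Atp5, or were Sdha, Sdhb, Sdhc or Sdhd. The symbol pattern itself uses no measured value. By complex they were 38 complex I subunits, 7 complex I assembly factors (Ndufaf symbols), 4 complex II genes, 8 complex III genes, 18 complex IV genes and 17 ATP synthase genes. Some symbols stand under a complex that their product does not belong to. Ndufa4 is counted with complex I by its symbol but is known as a cytochrome oxidase subunit, and its paralog Ndufa4l2 is counted there only by symbol as well. Atp5s and Atp5sl, which RefSeq lists as Dmac2l and Dmac2, are not subunits of the ATP synthase. Subunits encoded by mitochondrial DNA are not analysed here.

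The study set NS/PCs transduced with Nfia, which codes for a transcription factor of the NFI (nuclear factor I) family, against control NS/PCs, with 3 RNA-seq libraries in each group. All 6 libraries came from primary cells of the telencephalon of ICR mouse embryos at E11.5 (the developmental stage label says E11), grown attached to coated dishes with 10 ng/mL basic fibroblast growth factor. RNA was taken 3 days after transduction. The labels name neither the vector, nor its promoter, nor what the control cells received, nor whether a group's libraries stem from different cultures. The p-values therefore rest on the spread among these libraries, part of which may be technical. A Flag ChIP sample and an IgG ChIP sample of the series were not analysed here.

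Complex I passes electrons from NADH to ubiquinone, and complex II does so from succinate. Complex III hands them on to cytochrome c and complex IV to oxygen, while the proton gradient built on the way drives the ATP synthase. Most subunits are encoded in the nucleus, and proliferating neural precursors are generally described as relying heavily on glycolysis, with oxidative metabolism gaining weight as cells differentiate.

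Nfia itself, the check of the labels, had 69.0, 85.6 and 103.5 FPKM in the Nfia libraries, against 19.8, 23.9 and 22.2 FPKM in the control libraries. FPKM are fragments scaled by transcript length and by the fragments of the library. Differences are given as Nfia minus control in log2(FPKM + 1), a scale that understates the change of genes at low levels, and a gene was called at an adjusted p under 0.05 in limma's moderated test, with Benjamini-Hochberg adjustment across 12537 genes that averaged 1 FPKM or more. From the steps between low values, library depth relative to control 1 was 0.760 to 1.11, lowest in Nfia 3, with no absolute depth known. Of the 8 neural stem/precursor markers, 2 were higher (Nes and Vim) and 3 lower (Sox1, Pax6 and Hes5) with Nfia, and they summed to 5343 to 6430 FPKM in the Nfia libraries and 5438 to 5915 FPKM in the control libraries. Of 10 neuron markers, 9 were lower and 0 higher with Nfia (limma), and their sum was 1074 to 1095 FPKM in the Nfia libraries and 1702 to 1783 FPKM in the control libraries, with none at 0. In bulk RNA, fewer neurons and less of these transcripts per cell cannot be told apart. Of the 7 astrocyte markers 5 were tested, with 2 higher (Aldoc and Slc1a3) and 2 lower (Gfap and Aldh1l1). The 7 summed to 330 to 343 FPKM in the Nfia libraries and 238 to 264 FPKM in the control libraries. Of the 7 oligodendrocyte lineage markers, 2 were higher and 2 lower. They summed to 1054 to 1115 FPKM in the Nfia libraries and 363 to 410 FPKM in the control libraries. Their median difference was -0.31, with 3 positive and 4 negative. The highest single value among them was 711 FPKM, so the sum does not stand for all 7. Microglia, erythroid and endothelial markers summed to 4.25 FPKM or less in every library, and those of mesenchyme and pericytes to 7.10 to 18.2 FPKM in the Nfia libraries and 9.15 to 19.4 FPKM in the control libraries. The part of these marker differences in the values of the respiratory genes was not tested.

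The respiratory genes were among the most abundant transcripts of both groups, and few of them were called different between the groups. After the filter, 87 of the 92 could be tested; Cox4i2, Cox6a2, Cox7b2, Cox8b and Cox8c fell below it. The median of the 87 mean levels was 145 FPKM, against 14.7 FPKM over all genes tested, and 66 of the 87 stood in the top 10% of genes (78.2 FPKM or more). Together the 92 symbols took 3.56%, 3.51% and 3.28% of the FPKM total in the Nfia libraries, against 3.39%, 3.47% and 3.31% in the control libraries, so the groups overlapped.

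With Nfia, 2 of the 87 rose (Ndufs8 and Ndufc2) and 1 fell (Ndufa4l2), or 3.45%. Ndufa4l2 passed the filter only through its control values. Over all genes tested, 16.1% were called higher and 15.1% lower, 31.3% in all. Among genes that averaged 50 FPKM or more, 30.9% were called, and 2 of the 73 respiratory genes at that level (2.74%). At an unadjusted p under 0.05, 9 respiratory genes were higher and 3 lower. The 3 Nfia values lay wholly above the 3 control values for 10 of the 87 and wholly below them for 3, or 14.9%, against 47.7% of all genes tested.

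The median standard error of these genes was 0.08 on the log2 scale, against 0.07 over all genes, and 0.07 at 50 FPKM or more, against 0.06 over all genes at that level, so they were measured somewhat less precisely. For 83 of the 87 (95.4%), the 95% interval of the difference, not adjusted for the number of genes, lay within 0.5 of 0 on the log2 scale, which is 1.41-fold on log2(FPKM + 1). The share over all genes was 74.9%. The 4 exceptions were Ndufs5, Ndufa4l2, Cox7a1 and Ndufaf6. Differences were positive for 62 and negative for 25, with a median of 0.05, against 0.01 over all genes. That median was 0.001 without Nfia 1 and 0.10 without Nfia 3. The split between positive and negative moved with the scaling and with single libraries. It was 49 to 38 with upper-quartile scaling, 46 to 41 with quantile normalization and 44 to 43 without Nfia 1.

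**Figure D1:**
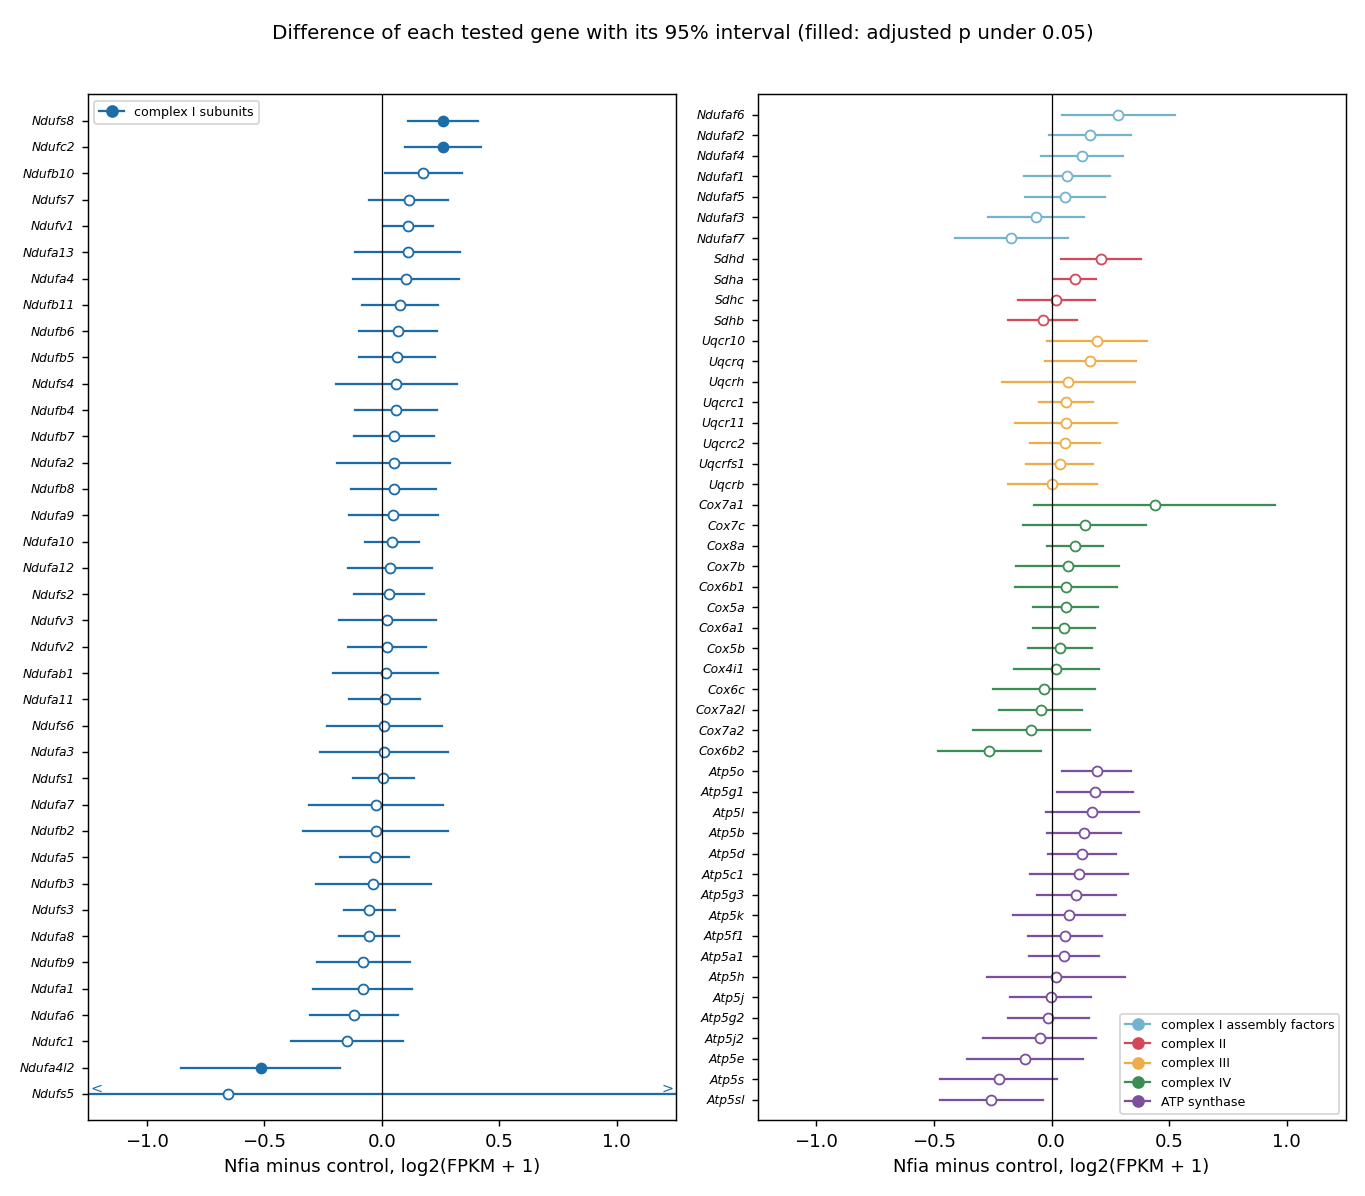
Difference of each tested respiratory gene (Nfia minus control, log2(FPKM + 1), horizontal axis) with its 95% interval from limma, by complex; filled points passed an adjusted p of 0.05. Ndufs8, Ndufc2 and Ndufa4l2 are filled, most other points lie close to 0, and the interval of Ndufs5, -5.37 to 4.06, runs past both ends of the axis.

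The calls depended on single libraries. Without Nfia 1, without Nfia 2, without control 2 or without control 3, limma called 0 respiratory genes in either direction. Without Nfia 3 it called 7 higher and 2 lower (Atp5o, Cox7c, Ndufa4, Ndufaf6, Ndufc2, Ndufs8 and Uqcr10 higher, Ndufa4l2 and Atp5sl lower), while the share called over all genes was 26.8%. Without control 1, Ndufs8, Sdhd and Ndufa4l2 were called. Across the 6 fits that each left out a library, 20.7% to 26.8% of all genes tested were still called.

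Complex I is an L-shaped enzyme whose matrix arm holds the N module, which oxidises NADH, and the Q module, which reduces ubiquinone. Its membrane arm pumps protons. Ndufs8, an iron-sulfur subunit of the Q module, had 131.0, 138.4 and 119.0 FPKM in the Nfia libraries, against 109.5, 108.6 and 104.6 FPKM in the control libraries. Each Nfia library was above each control library. The means were 129 ± 9.82 FPKM with Nfia and 108 ± 2.64 FPKM in control (SD, n = 3 each), a log2 difference of 0.26 (SE 0.06, limma adjusted p = 0.020). Left-out libraries moved the adjusted p between 0.00851 and 0.0679, with 0.0547 without Nfia 1, 0.0635 without Nfia 2, 0.0518 without control 2 and 0.0679 without control 3.

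Ndufc2, an accessory subunit of the membrane arm, was the more abundant of the pair that rose. It had 462.1, 451.6 and 399.4 FPKM in the Nfia libraries, against 364.8, 373.2 and 355.3 FPKM in the control libraries, again without overlap. The means were 438 ± 33.5 FPKM with Nfia and 364 ± 8.96 FPKM in control (SD, n = 3 each), a log2 difference of 0.26 (SE 0.07, limma adjusted p = 0.0280). Its adjusted p was between 0.00911 and 0.102 over the left-out libraries and stayed under 0.05 only without Nfia 3. It was 0.0748 without Nfia 1, 0.102 without Nfia 2, 0.0766 without control 1, 0.0621 without control 2 and 0.0884 without control 3, and 0.0588 where no filter on low values was used.

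The other genes of complex I showed differences on both sides of 0. In the N module, Ndufv1, Ndufv2, Ndufv3, Ndufs1, Ndufs4, Ndufs6, Ndufa2 and Ndufa12 had differences of 0.01 to 0.11, and 0 of the 8 were called (1 higher at an unadjusted p under 0.05). With upper-quartile scaling 4 of the 8 were positive, with quantile normalization 5 and without Nfia 1, 2. That gene was Ndufv1, the subunit that binds NADH and the flavin, with 72.2, 71.4 and 70.8 FPKM in the Nfia libraries, against 63.8, 69.5 and 65.1 FPKM in the control libraries (difference 0.11, limma adjusted p = 0.101). Among the other 7 genes of the Q module, Ndufs7 had a difference of 0.11 and Ndufa6 one of -0.12, and neither was called. Beside Ndufc2, the membrane arm held 19 genes, none called in limma and 1 higher at an unadjusted p under 0.05, Ndufb10. Ndufb10 had 145.1, 137.6 and 127.5 FPKM in the Nfia libraries, against 129.5, 119.2 and 113.5 FPKM in the control libraries, so that the groups overlapped (difference 0.18, limma adjusted p = 0.0956).

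Ndufs5, an accessory subunit on the outer side of the membrane arm, differed between libraries of 1 group more than any other gene of the set. It was listed at 24.6, 0.02 and 32.9 FPKM in the Nfia libraries, against 0.004, 94.1 and 35.2 FPKM in the control libraries. Its difference of -0.65 was the lowest of the 87, with a standard error of 1.98 (limma adjusted p = 0.826). Values this close to 0 in 1 library of each group, in a gene that the other libraries list at 24.6 FPKM or more, can be failed estimates, which was not tested, and no mean is given.

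Ndufa4l2, the paralog of Ndufa4 known as a hypoxia-induced gene, was the member that fell. It was near the filter, with 0.658, 0.906 and 1.02 FPKM in the Nfia libraries, against 1.36, 1.61 and 2.02 FPKM in the control libraries. Its Nfia mean, 0.862 FPKM, was below the filter of 1 FPKM. It was tested only because of its control mean, 1.66 FPKM. The groups did not overlap, and the log2 difference was -0.51 (SE 0.14, limma adjusted p = 0.0337, 0.0386 to 0.102 over the left-out libraries). The adjusted p was over 0.05 without Nfia 1 (0.0779), Nfia 2 (0.0768), control 2 (0.0756) or control 3 (0.102). Its span in GRCm38.p6 (mm10) is chr10:127509274-127517154 and overlaps that of Shmt2, an enzyme of mitochondrial one-carbon metabolism. Shmt2 rose, with 94.9, 91.3 and 92.1 FPKM in the Nfia libraries, against 63.0, 66.0 and 59.4 FPKM in the control libraries (difference 0.56, limma adjusted p = 0.000616). The library kit keeps strand, but whether strand was used in making the FPKM values is not given in the sources used here, so reads of the overlap may be split between the genes. Ndufa4 was far more abundant, with 738.1, 718.2 and 588.5 FPKM in the Nfia libraries, against 652.9, 623.7 and 617.2 FPKM in the control libraries, and was not called (difference 0.10, limma adjusted p = 0.441).

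**Figure D2:**
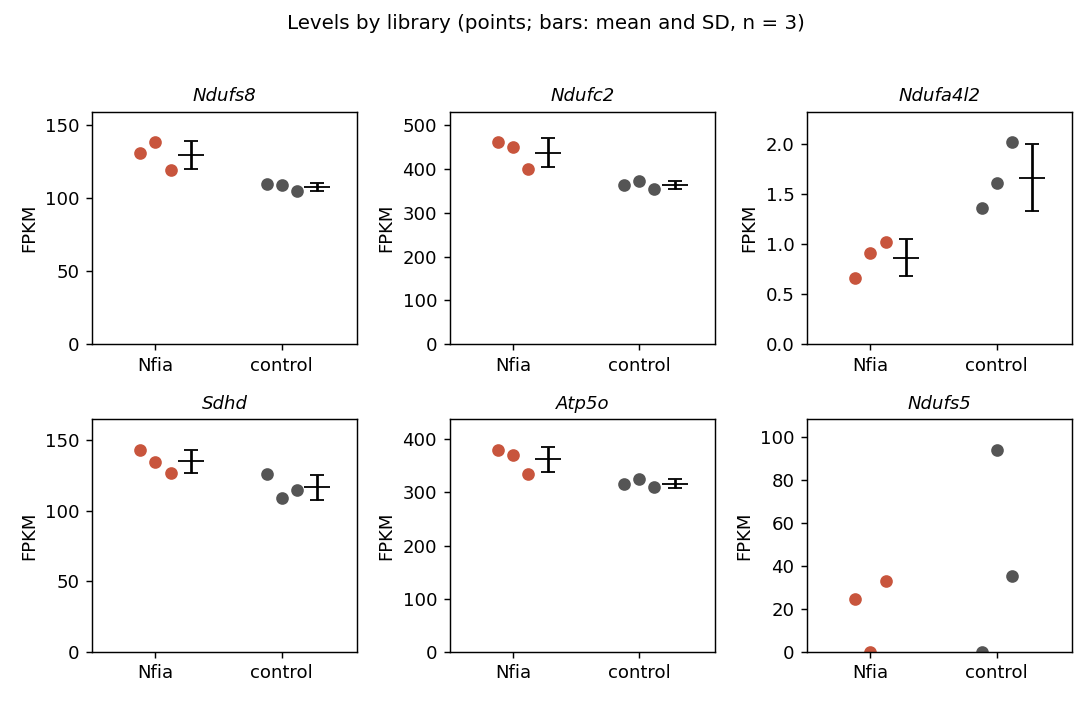
FPKM of 6 respiratory genes in each Nfia and control library (points, vertical axis from 0), with the mean and SD of each group beside them (n = 3) except for Ndufs5. Ndufs8 and Ndufc2 lie higher and Ndufa4l2 lower in every Nfia library than in any control library, Sdhd and Atp5o are apart as well but missed the threshold, and Ndufs5 ranges between 0.004 and 94.1 FPKM in the control libraries.

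The 7 complex I assembly factors help to build the enzyme and are not part of it. They were far less abundant than the subunits, with a median of 11.8 FPKM, against 118 FPKM for the complex I subunits. In limma, 0 of 7 were called, 1 was higher at an unadjusted p under 0.05, and the robust variance trend called that gene. It was Ndufaf6, with 15.0, 12.8 and 11.6 FPKM in the Nfia libraries, against 9.96, 11.6 and 10.1 FPKM in the control libraries, where Nfia 3 lay just below control 2 (difference 0.28, SE 0.10, limma adjusted p = 0.0732).

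Complex II, the succinate dehydrogenase, is shared with the citrate cycle and has no subunit encoded by mitochondrial DNA. In limma, 0 of its 4 genes were called, 2 were higher at an unadjusted p under 0.05, and the robust trend called 1, Sdhd. Sdha, the flavoprotein that oxidises succinate, had 112.6, 110.4 and 109.3 FPKM in the Nfia libraries, against 103.1, 104.5 and 102.0 FPKM in the control libraries. Each Nfia library lay above each control library, but the difference was small at 0.10 (SE 0.04, limma adjusted p = 0.0829). Sdhd, a membrane anchor, had 143.2, 134.6 and 126.9 FPKM in the Nfia libraries, against 126.2, 108.7 and 114.9 FPKM in the control libraries, with Nfia 3 and control 1 nearly equal (difference 0.21, SE 0.07, limma adjusted p = 0.0649). Without control 1 the adjusted p of Sdhd was 0.0387.

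The remaining pair of complex II overlapped between groups. Sdhb, the iron-sulfur subunit, had 168.0, 167.3 and 150.8 FPKM in the Nfia libraries, against 174.6, 165.2 and 159.2 FPKM in the control libraries (difference -0.04, limma adjusted p = 0.668). Sdhc, the other membrane anchor, had 154.6, 143.2 and 138.4 FPKM in the Nfia libraries, against 139.8, 155.2 and 135.2 FPKM in the control libraries (difference 0.02, limma adjusted p = 0.843).

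Complex III, the cytochrome bc1 complex, had 8 genes by the symbol pattern, with differences of 0.00 to 0.19. Of these 6 were positive with upper-quartile scaling, with quantile normalization or without Nfia 1. In limma 0 were called, with 0 at an unadjusted p under 0.05 and 0 under the robust trend. The largest difference was that of Uqcr10, a small accessory subunit, with 340.6, 347.3 and 281.5 FPKM in the Nfia libraries, against 282.3, 293.6 and 268.1 FPKM in the control libraries (difference 0.19, limma adjusted p = 0.147). Nfia 1 and Nfia 2 stood above the controls and Nfia 3 among them, and without Nfia 3 the adjusted p was 0.0173. Uqcrfs1, the Rieske iron-sulfur protein, differed by 0.03, and Uqcrc1 and Uqcrc2, the core proteins, by 0.06 each. Cyc1 (cytochrome c1) lies outside the symbol pattern and was read with the electron carriers. It was not called (difference 0.11, limma adjusted p = 0.189).

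Complex IV, cytochrome c oxidase, is the complex with most alternative subunits. Of its 18 genes 13 were tested and 0 were called in limma. At an unadjusted p under 0.05, 1 was lower, Cox6b2, which the robust trend also called. Cox4i1, Cox6a1, Cox6b1, Cox7a2, Cox7b and Cox8a are the forms used in most tissues, and had means of 149 to 742 FPKM in the Nfia libraries and 141 to 731 FPKM in the control libraries. Their differences were between -0.09 and 0.10. Of these only Cox8a was apart, with 466.5, 464.2 and 459.0 FPKM in the Nfia libraries, against 416.7, 444.2 and 436.4 FPKM in the control libraries (difference 0.10, limma adjusted p = 0.176). Cox7a2l, a relative that takes part in joining complexes into supercomplexes, differed by -0.05.

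Cox6b2, known as the form of testis, had 30.5, 35.8 and 33.2 FPKM in the Nfia libraries, against 37.9, 45.4 and 37.1 FPKM in the control libraries. All 3 Nfia libraries were below the controls (difference -0.26, SE 0.09, limma adjusted p = 0.0703). Cox6b2 made up 5.09% ± 0.731 of the Cox6b1 and Cox6b2 FPKM with Nfia and 6.30% ± 0.444 in control (SD, n = 3 each). Cox7a1, known from heart and skeletal muscle, had the highest difference of the 87, 0.44, with groups that overlapped. It had 4.47, 2.96 and 5.32 FPKM in the Nfia libraries, against 3.15, 1.98 and 3.45 FPKM in the control libraries (SE 0.21, limma adjusted p = 0.165).

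The 5 genes below the filter were all alternative subunits of complex IV and were not tested in the main comparison. Cox4i2, the form known for its induction by low oxygen, had 0.573, 0.309 and 0.648 FPKM in the Nfia libraries, against 1.20, 0.933 and 0.772 FPKM in the control libraries. Cox6a2 and Cox8b are known from heart and skeletal muscle. Cox6a2 had 0.366, 0.622 and 0.532 FPKM in the Nfia libraries and was listed at 0, 0.0893 and 0 FPKM in the control libraries, while Cox8b had 0.207, 1.26 and 1.20 FPKM in the Nfia libraries and was listed at 0 in all 3 control libraries. For these 3 genes the groups did not overlap. Without a filter on low values, limma called Cox6a2 higher and not the others. Cox7b2 was listed above 0 only in Nfia 1, at 0.0980 FPKM, and Cox8c was listed at 0 in all 6 libraries. The span of Cox4i2 overlaps that of Bcl2l1 and the span of Cox6a2 that of Itgad, so the limit given for Ndufa4l2 applies to them too, and it applies to 15 of the 92 genes in all.

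**Figure D3:**
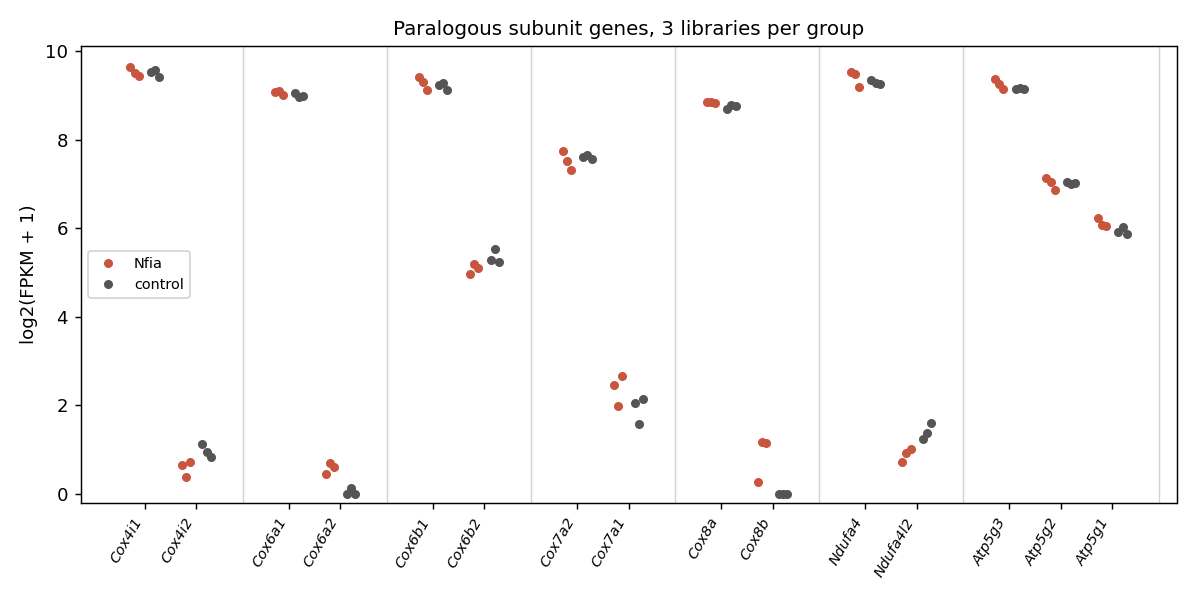
Level of paralogous subunit genes in the 3 Nfia and 3 control libraries, log2(FPKM + 1) on the vertical axis. The common form stands far above the alternative one in every set, Cox6b2, Cox4i2 and Ndufa4l2 lie lower and Cox6a2 and Cox8b higher in the Nfia libraries, and Atp5g3 is the most abundant of the Atp5g genes.

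The ATP synthase couples a rotating membrane ring to a catalytic head. In limma, 0 of its 17 genes were called, 2 were higher and 1 lower at an unadjusted p under 0.05, and the robust trend called 1 in each direction, Atp5o and Atp5sl. Atp5o, which joins the head to the peripheral stalk, had 380.5, 371.4 and 335.5 FPKM in the Nfia libraries, against 315.2, 325.3 and 310.0 FPKM in the control libraries. The groups did not overlap (difference 0.19, SE 0.06, limma adjusted p = 0.0563, and 0.0184 without Nfia 3). In the catalytic head, Atp5b, the beta subunit, was the most abundant of the 92 genes, with 1036.9, 1020.8 and 978.0 FPKM in the Nfia libraries, against 937.0, 953.0 and 870.6 FPKM in the control libraries. It was also apart (difference 0.14, limma adjusted p = 0.159), whereas Atp5a1, the alpha subunit, overlapped (difference 0.05, limma adjusted p = 0.556).

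Atp5g1, Atp5g2 and Atp5g3 encode the same mature c subunit of the ring. Atp5g1 had 74.6, 66.4 and 65.5 FPKM in the Nfia libraries, against 59.2, 64.6 and 57.6 FPKM in the control libraries (difference 0.18, limma adjusted p = 0.0823). Atp5g2 differed by -0.01 and Atp5g3 by 0.10, and neither was called. Atp5g3 made up 75.7% ± 0.144 of the FPKM of the 3 genes with Nfia and 75.0% ± 0.0939 in control, and Atp5g2 made up 15.8% ± 0.316 with Nfia and 17.0% ± 0.327 in control (SD, n = 3 each). Both shares were apart between the groups, and with 3 libraries a side the smallest p of an exact permutation test is 0.1. Atp5sl, which is no subunit, had 9.58, 9.36 and 11.9 FPKM in the Nfia libraries, against 12.2, 12.1 and 13.1 FPKM in the control libraries (difference -0.26, limma adjusted p = 0.0763, and 0.0106 without Nfia 3), and Atp5s differed by -0.22 (limma adjusted p = 0.148).

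Libraries of 1 group also differed in these genes. Nfia 3 was the lowest of the Nfia libraries for 79 of the 87 genes (90.8%), against 34.8% of all genes tested, and control 3 was the lowest of the controls for 63 (72.4%), against 33.3% of all genes. Relative to the control mean, the median of the 87 genes was 0.12, 0.07 and -0.06 on the log2 scale in Nfia 1, 2 and 3, and 0.04, 0.03 and -0.05 in control 1, 2 and 3. The median level of the 87 genes in log2(FPKM + 1) had an SD between libraries of 0.09, averaged over both groups. The median difference between the groups was 0.05. Cytosolic ribosomal protein genes, which are also short and abundant, gave medians of 0.28, 0.20 and -0.01 in the Nfia libraries and 0.05, 0.03 and -0.08 in the control libraries. The lowest relative depth was also that of Nfia 3, at 0.760 of control 1, and its part in these values was not tested.

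**Figure D4:**
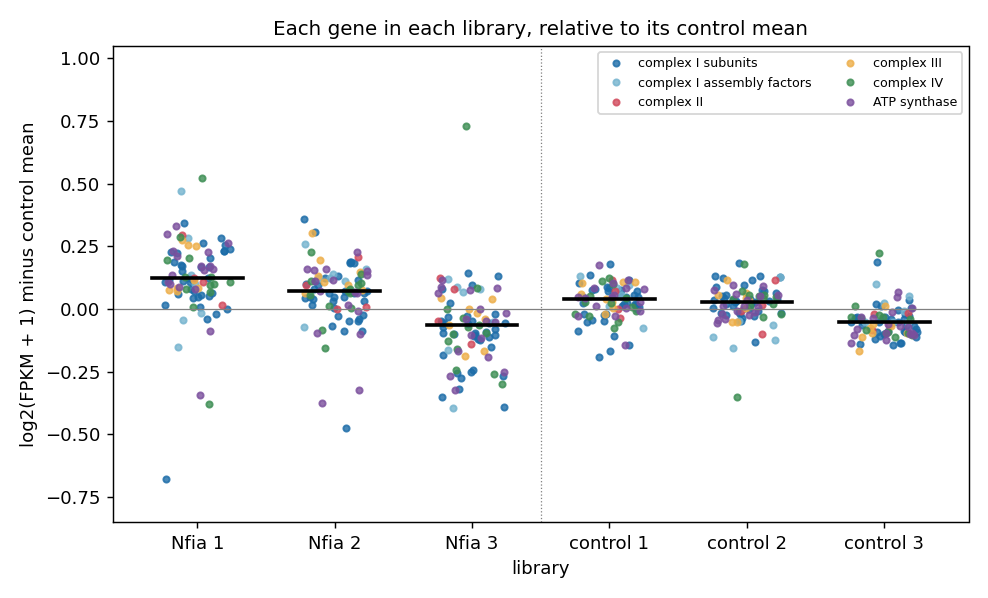
Level of each tested respiratory gene in each library relative to its control mean (log2(FPKM + 1), vertical axis; Ndufs5 left out), with the median of the 87 genes as a bar. The medians are 0.12, 0.07 and -0.06 in the Nfia libraries and 0.04, 0.03 and -0.05 in the control libraries.

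Genes that feed, build or regulate the respiratory chain were read beside it, in lists chosen with earlier results of these data known. In 11 lists of such genes, 31 of 146 tested genes rose and 6 fell (25.3%), against 31.3% called over all genes. By direction, 21.2% rose, against 16.1% of all genes, and 4.11% fell, against 15.1%. Without Nfia 2 or without control 3, 19 of the listed genes were higher, and without Nfia 2, 3 were lower. In the citrate cycle and pyruvate entry list, 9 of 21 rose (42.9%, against 16.1% of all genes), with a median difference of 0.15. In that list 0 fell (2 lower at an unadjusted p under 0.05, 0 under the robust trend). Pdha1, a subunit of the pyruvate dehydrogenase that makes acetyl-CoA, had 167.2, 165.5 and 160.0 FPKM in the Nfia libraries, against 127.4, 123.0 and 117.8 FPKM in the control libraries (difference 0.42, limma adjusted p = 0.00136). Pcx, which makes oxaloacetate out of pyruvate, differed by 0.43, Dlst, a subunit of the oxoglutarate dehydrogenase, by 0.21 and Cs, the citrate synthase, by 0.27. The count of the list was 6 to 10 over the left-out libraries, lowest without control 3.

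Of 23 genes of protein import and folding, 0 fell in limma (0 lower at an unadjusted p under 0.05, and 0 under the robust trend). In this list 8 rose (34.8%, against 16.1% of all genes). Among them were Tomm40, the pore of the outer membrane (difference 0.33), Timm10, a carrier of the space between the membranes (0.34), and the matrix chaperones Hspd1 (0.35) and Hspa9 (0.31). Of 13 regulators of mitochondrial genes, 4 rose and 1 fell (38.5%, against 31.3% of all genes). Ppargc1a, a coactivator known for raising mitochondrial gene expression, had 7.17, 8.49 and 9.17 FPKM in the Nfia libraries, against 5.57, 5.73 and 5.48 FPKM in the control libraries (difference 0.49, limma adjusted p = 0.00700). The related coactivator Pprc1 rose by 0.50, the GA-binding protein subunit Gabpb2 by 0.25 and the nuclear receptor Esrra by 0.19, while Esrrg fell by 0.34 to a mean of 1.77 FPKM. With each library left out in turn, 2 or 3 regulators were called higher and 0 lower, and Ppargc1a and Pprc1 were called each time. The factors Nrf1 (0.08), Gabpa (0.11), Yy1 (0.03) and Tfam (0.06) were not called.

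The lists nearest to the respiratory complexes held few calls. Of 25 genes for the assembly of cytochrome oxidase, Cox10 and Coa5 rose and Cox19, a copper-handling protein, fell, with a difference of -0.35 (limma adjusted p = 0.00681, and under 0.05 with each library left out in turn). The count higher was 0 without Nfia 2, control 2 or control 3, and Coa5 was not called with quantile normalization, with upper-quartile scaling or with any library left out. Of 17 assembly genes of the other complexes, Acad9 and Ecsit rose, but 0 were called with quantile normalization, with upper-quartile scaling, or with any library other than Nfia 3 left out. Without Nfia 3, Acad9 and Tmem126a were called and Ecsit was not. Ecsit was also not called with no filter, with no variance trend or with a robust trend. Dhodh, not called without Nfia 1, Nfia 2 or control 3, rose among 7 electron carriers and their enzymes, and Pdss1, which starts the side chain of coenzyme Q, among 11 genes of coenzyme Q synthesis (difference 0.48). Of the 3 ATP synthase genes outside the symbol pattern, Usmg5, 2010107E04Rik and Atpif1, 0 were called, with 1 lower at an unadjusted p under 0.05 and 0 under the robust trend. That was Atpif1, the inhibitor of the ATP synthase (difference -0.21, limma adjusted p = 0.0891).

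Other mitochondrial genes went in both directions. Among 13 carriers and pores, Slc25a5, an ADP/ATP carrier (difference 0.39), and Vdac1 rose and Slc25a12 fell. In mitochondrial DNA maintenance, Polg, the DNA polymerase, rose by 0.63 and Mgme1 by 0.23, while Tk2 and Dguok, kinases that supply its nucleotides, fell. Of 5 tested pyruvate dehydrogenase kinases and phosphatases, 1 fell, Pdp1. Mgme1 was not called with upper-quartile scaling, with quantile normalization or with any library other than control 2 left out. Slc25a12 was not called without Nfia 2, and Pdp1 not without Nfia 2, Nfia 3, control 1 or control 3. Ldha, the lactate dehydrogenase subunit favoured in glycolysis, had 430.5, 441.0 and 415.1 FPKM in the Nfia libraries, against 220.0, 202.8 and 210.4 FPKM in the control libraries (difference 1.02, limma adjusted p = 0.000151). Ldhb, the form of oxidative tissues, was lower, with 87.8, 84.6 and 78.7 FPKM in the Nfia libraries, against 111.7, 115.4 and 100.3 FPKM in the control libraries (difference -0.38, limma adjusted p = 0.00743). Of 77 mitochondrial ribosomal proteins, 8 rose (10.4%, against 16.1% of all genes) and 1 fell. The count higher was 2 without Nfia 1 or Nfia 2, 5 without control 1 or control 2, 3 without control 3, 13 without Nfia 3 and 5 with upper-quartile scaling. Of 83 cytosolic ones 8 rose (9.64%) and 0 fell (0 lower at an unadjusted p under 0.05, and 0 under the robust trend). The cytosolic count was 0 without Nfia 2 or control 3 and 37 without Nfia 3.

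**Figure D5:**
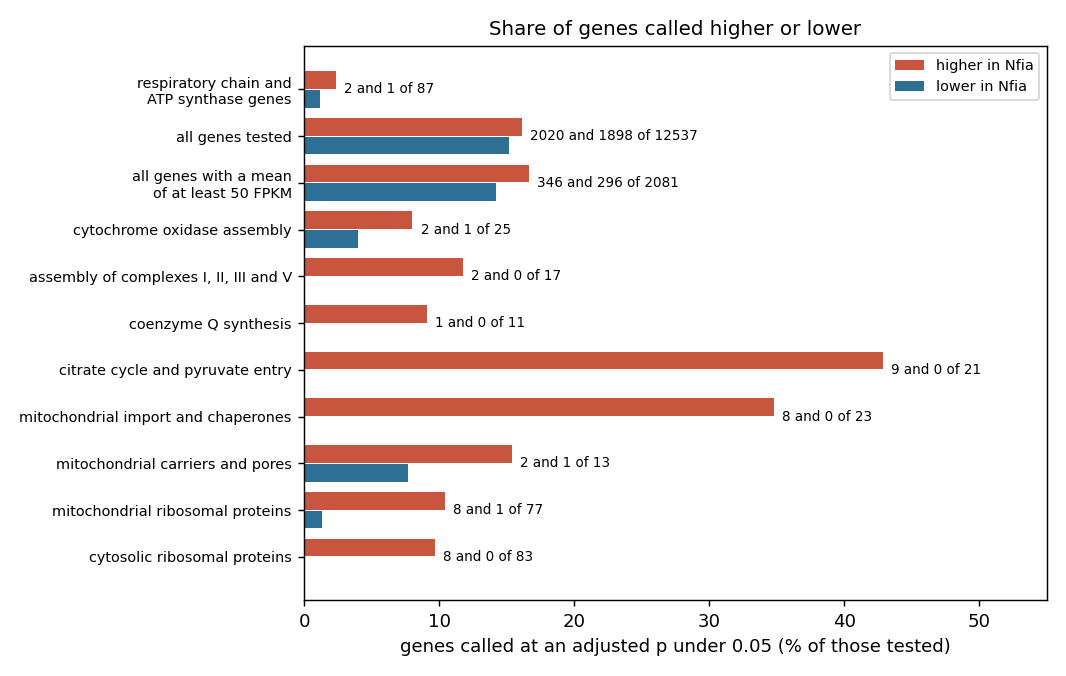
Share of tested genes called higher (red) or lower (blue) in Nfia libraries at an adjusted p under 0.05, in percent, for the respiratory genes, for all genes and for companion lists, with the counts beside the bars. The respiratory genes stand at 2 and 1 of 87, all genes at 2020 and 1898 of 12537, and the citrate cycle list at 9 and 0 of 21. The lists were chosen with earlier results of these data known.

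Promoter sequences are given for the genes that rose, for Cox6b1 and Cox6b2, an abundant and a scarcer form of 1 subunit, and for the pair that holds both an NRF1 and an ETS match. A RefSeq table of GRCm38.p6 held the 250 bases before and 50 after the start of 76 of the 92 genes, among them Ndufs8 and Ndufc2 but not Ndufa4l2. Capitals mark matches, on either strand, to the letters searched for NRF1 (GCGCA directly followed by its reverse complement) and for ETS factors such as GABP (CCGGAAG), both long known from promoters of respiratory genes. The windows are chr19:3912725-3913024 (minus strand) for Ndufs8, chr7:97399753-97400052 (plus strand) for Ndufc2, chr7:30626065-30626364 (minus strand) for Cox6b1, chr7:4753045-4753344 (minus strand) for Cox6b2, chr5:115348909-115349208 (minus strand) for Cox6a1 and chr5:108434350-108434649 (minus strand) for Atp5k.
Ndufs8: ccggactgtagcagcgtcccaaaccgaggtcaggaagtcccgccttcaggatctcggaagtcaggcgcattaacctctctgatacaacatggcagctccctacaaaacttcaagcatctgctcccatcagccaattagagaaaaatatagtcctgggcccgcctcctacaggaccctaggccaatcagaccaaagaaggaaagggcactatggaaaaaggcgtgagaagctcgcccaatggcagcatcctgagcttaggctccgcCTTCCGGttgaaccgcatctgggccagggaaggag
Ndufc2: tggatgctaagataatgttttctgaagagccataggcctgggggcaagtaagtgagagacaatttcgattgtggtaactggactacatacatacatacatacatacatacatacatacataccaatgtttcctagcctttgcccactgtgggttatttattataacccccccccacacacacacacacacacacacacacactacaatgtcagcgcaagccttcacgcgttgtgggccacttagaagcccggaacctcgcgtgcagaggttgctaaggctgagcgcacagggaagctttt
Cox6b1: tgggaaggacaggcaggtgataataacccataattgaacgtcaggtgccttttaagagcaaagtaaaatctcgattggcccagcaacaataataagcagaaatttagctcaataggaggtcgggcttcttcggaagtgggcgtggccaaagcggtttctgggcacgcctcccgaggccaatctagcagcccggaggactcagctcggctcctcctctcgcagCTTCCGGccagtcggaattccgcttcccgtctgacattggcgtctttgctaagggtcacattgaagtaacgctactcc
Cox6b2: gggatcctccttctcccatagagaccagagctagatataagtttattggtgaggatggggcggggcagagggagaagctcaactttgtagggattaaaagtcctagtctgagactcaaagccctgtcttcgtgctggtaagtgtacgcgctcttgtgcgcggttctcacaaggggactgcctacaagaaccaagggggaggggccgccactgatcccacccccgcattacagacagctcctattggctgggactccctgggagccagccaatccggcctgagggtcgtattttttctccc
Cox6a1: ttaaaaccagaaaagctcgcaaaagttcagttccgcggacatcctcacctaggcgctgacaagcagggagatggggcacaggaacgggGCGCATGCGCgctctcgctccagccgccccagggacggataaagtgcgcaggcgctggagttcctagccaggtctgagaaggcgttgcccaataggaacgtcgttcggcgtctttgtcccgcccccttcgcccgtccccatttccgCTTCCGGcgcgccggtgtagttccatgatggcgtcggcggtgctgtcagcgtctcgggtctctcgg
Atp5k: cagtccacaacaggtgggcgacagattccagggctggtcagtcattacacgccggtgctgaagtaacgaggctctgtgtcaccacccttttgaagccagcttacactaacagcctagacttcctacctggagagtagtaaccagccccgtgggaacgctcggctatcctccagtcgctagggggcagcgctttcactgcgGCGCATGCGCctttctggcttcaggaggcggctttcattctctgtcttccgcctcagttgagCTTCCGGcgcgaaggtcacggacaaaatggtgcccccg

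Counted from 1 at the 5′ end of the window, with the start at base 251, the ETS letters of Ndufs8 lie at bases 266 to 272 and those of Cox6b1 at bases 223 to 229. Cox6a1 has NRF1 letters at bases 89 to 98 and ETS letters at 235 to 241, and Atp5k at 201 to 210 and 263 to 269. Ndufc2 and Cox6b2 hold none of the 6 motifs searched. Neither Cox6a1 (difference 0.05) nor Atp5k (0.07) was called, nor was any other gene with NRF1 letters. The called genes with a promoter in the table were Ndufs8, which holds ETS letters, and Ndufc2, which does not. With so few called genes, a relation between letters and calls was not tested.

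Among the 76 genes, NRF1 letters were found in 7 (9.21%), against 2.39% of the tested genes with a promoter and 0.971% of all promoters in the table. These were Ndufa11, Ndufaf4, Ndufaf5, Uqcrc1, Cox6a1, Atp5g2 and Atp5k. A gene was counted if any of its promoters matched, whereas the shares of all promoters count each promoter. Shares of genes and of promoters are therefore in unlike units. ETS letters were found in 17 (22.4%), against 20.4% of tested genes and 8.86% of all promoters, and the letters AAGATGGC of YY1 in 11 (14.5%), against 5.45% and 2.75%. The YY1 matches fell in 7 complex I subunits and 4 ATP synthase genes. The NFI palindrome, TTGGC and its reverse complement 5 bases apart, was in 0 of the 76, against 0.0326% of tested genes, and its shorter arm TTGGCA, whose letters overlap the palindrome's, in 15 (19.7%), against 13.1% of tested genes and 14.1% of all promoters. The hypoxia response letters ACGTG were in 20 (26.3%), against 29.8% of tested genes and 19.6% of all promoters. These shares describe letters in short windows and show no binding.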

How the data were processed

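Poly(A) RNA of 3 Nfia and 3 control libraries was sequenced after a directional library preparation, per the labels' protocols. The deposited values are FPKM made by the authors, 1 per gene symbol and library; the files have no header, and the unit was read from the values and from the tools. The submitters' processing notes name TopHat, Bowtie 1, SAMtools, Cufflinks, Cuffdiff, MACS 1.4 and mm10 with no role or order; annotation, filters and strand use were not given in the sources used here. Since FPKM is relative to the library, more of some abundant transcripts means lower values of others. Without counts, neither a count test nor a counting interval was possible.

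The 12537 genes averaging 1 FPKM or more were tested as log2(FPKM + 1) in R 4.3.3 with limma 3.58.1 (two-sided; lmFit and trended eBayes; 4 residual degrees of freedom), with Benjamini-Hochberg adjustment over all of them and a threshold of 0.05. The step was tested on simulated data with 200 genes changed, fewer than the 3918 called here. It recovered 5.8% of differences of 0.2 on the log2 scale and 73.5% of those of 0.5. Of its calls, 4.29% were false. Named are all complex II genes, called genes, genes with a paralog at the same subunit position, genes below the filter and those with the highest and lowest difference. Genes behind most counts of 5 or fewer and up to 4 called genes of each companion list are named as well. Other genes named, such as those nearest the threshold, were chosen after their values were seen. The members and lists were chosen with earlier results of these data known. Positions and promoters are RefSeq's for GRCm38.p6, and all 92 symbols matched its gene table, 3 of them through a synonym. Alternatives were a pseudocount of 0.1, no filter, a mean of at least 5 FPKM, scaling by upper quartile, by median of ratios or by quantiles, no variance trend, a robust trend, the replicate number as a block, and each library left out.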

Additional observations from a re-analysis of the deposited data

How the results depend on the processing

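The median difference of the respiratory genes stayed positive and no call of Ndufs8, Ndufc2 or Ndufa4l2 changed direction under the alternatives tried, whereas uncalled genes near 0 did change sign: 62 of 87 were positive, against 49 with upper-quartile scaling, 46 with quantile normalization and 44 to 75 without single libraries. Over all genes the median was 0.01, but -0.02 with upper-quartile scaling and -0.01 with quantile normalization. The 2 respiratory genes called higher were 4 with quantile normalization and 5 with a robust trend, and the 1 called lower was 0 with a mean of at least 5 FPKM, since Ndufa4l2 is then not tested, and 3 with a robust trend. With no filter, 1 complex I subunit (Ndufs8) and 1 complex IV gene (Cox6a2) were higher. With quantile normalization the complex I subunit Ndufb10 and 1 complex II gene were also higher. With a robust trend 1 complex I assembly factor, 1 complex II gene and 1 ATP synthase gene were higher, and 1 complex IV gene and 1 ATP synthase gene lower. For these the cause was not tested. Upper-quartile scaling, median-of-ratios scaling, a pseudocount of 0.1 and no variance trend left the counts at 2 and 1, with the same genes. The median difference of the respiratory genes was 0.05, and between 0.01 and 0.05 over the scalings.

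Without each library in turn, the respiratory genes called were 0 to 7 higher and 0 to 2 lower. For complex I subunits by symbol, Ndufa4 and Ndufa4l2 included, the range was 0 to 3 higher and 0 to 1 lower. For the assembly factors, complex II, complex III and complex IV it was 0 to 1 higher. For the ATP synthase it was 0 to 1 higher and 0 to 1 lower. The companion lists had 19 to 35 higher and 3 to 6 lower, and all genes 1311 to 1724 higher and 1277 to 1620 lower.

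The labels link libraries across the groups only by replicate number. Over all genes tested, deviations from the group means correlated at 0.03, -0.01 and 0.05 between libraries of the same number. In the respiratory genes, replicate 3 was the lowest of its group for 79 of 87 with Nfia and 63 of 87 in control. Whether the replicate number marks an effect shared by the groups was not tested. With the number as a block, 8 respiratory genes were higher and 3 lower. Among the genes counted as complex I subunits by symbol, Ndufs8, Ndufc2 and Ndufb10 were higher and Ndufa4l2 lower. In addition, 1 was higher each in complexes II, III and IV and 2 in the ATP synthase, and 1 lower each in complex IV and the ATP synthase. With the block and upper-quartile scaling together, an alternative added after seeing the data, 5 were higher and 4 lower. The same complex I subunits were called, and 1 gene was higher each in complexes II and IV. In complex IV 1 was lower and in the ATP synthase 2, and 12 companion genes were lower. FPKM without counts leaves the depth unknown, so low genes such as Ndufa4l2 and the alternative complex IV subunits rest on an unknown number of fragments.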
